A study of Homo sapiens with 4 samples.

Results

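The integrin and laminin genes were followed in BEAS-2B, an airway epithelial line of human bronchial origin, immortalised in culture. Members were the gene symbols of the form ITGA or ITGB followed by 1 or 2 characters, and LAMA, LAMB or LAMC followed by 1 digit. This rule found 39 of 24424 symbols, of which 27 were integrin symbols and 12 were laminin symbols. RNA was sequenced from 4 groups with 1 library each: an occludin siRNA for 24 h and then LPS for 2 h (siOCLN+LPS), wild-type occludin for 24 h and then LPS for 2 h (labelled wtOCLN+LPS), LPS alone for 2 h (LPS), and cells with no treatment (control). All libraries carry the genotype label wild type, LPS is bacterial lipopolysaccharide, and occludin (OCLN) is a tight junction protein. Neither the LPS nor the control library has a transfection or a mock transfection in its labels, and no vector, promoter or control siRNA is named.

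Integrins are cell surface receptors built from an alpha and a beta chain, and they bind epithelial cells to the matrix beneath them. Laminins are secreted trimers of an alpha, a beta and a gamma chain and are the main adhesive proteins of the basement membrane. In airway epithelium the ITGA6/ITGB4 pair anchors basal cells through hemidesmosomes to the laminin that holds LAMA3 and LAMB3, and ITGA3/ITGB1 binds the same laminin and the LAMA5-containing laminins. ITGB8 and ITGB6 pair with ITGAV and are known for the activation of latent TGF-beta.

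Library totals ran from 13867494 to 17500031 counts, so 1 count was worth 0.0571 to 0.0721 CPM (counts scaled by the library total). No group had more than 1 library, so differences had no replicate check and were not tested. Ratios are plain CPM ratios with exact 95% intervals from the counts (Clopper-Pearson), and levels have Poisson intervals of the same kind. Both cover counting error only, since each group had 1 library. No molecular identifiers are named, so repeated copies of the same molecule may be counted and the intervals may be too narrow. A gene entered a comparison if it reached 1 CPM in at least 1 of the paired libraries, and counted as apart when log2(CPM + 1) differed by at least 2-fold. OCLN itself stood at 21.0 CPM in siOCLN+LPS, 29.7 CPM in the library labelled wtOCLN+LPS, 50.4 CPM in LPS and 55.4 CPM in control. The OCLN count in the library labelled wtOCLN+LPS thus went against its label, and no direction below is read as one of raised occludin. These libraries hold no protein level, and whether an introduced occludin sequence would be counted is not stated.

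Of the 39 members, 29 reached 1 CPM in at least 1 library. ITGA8, ITGAD, ITGAL and LAMB4 had 0 counts in all 4 libraries, where 3 counts would be 0.171 to 0.216 CPM. ITGA4, ITGA9, ITGAM, ITGAX, ITGB6 and LAMC3 had at most 12 counts in any library. ITGB6, the epithelial partner of ITGAV that airway cells are known to raise after injury, had 0 or 1 count per library.

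**Figure D1:**
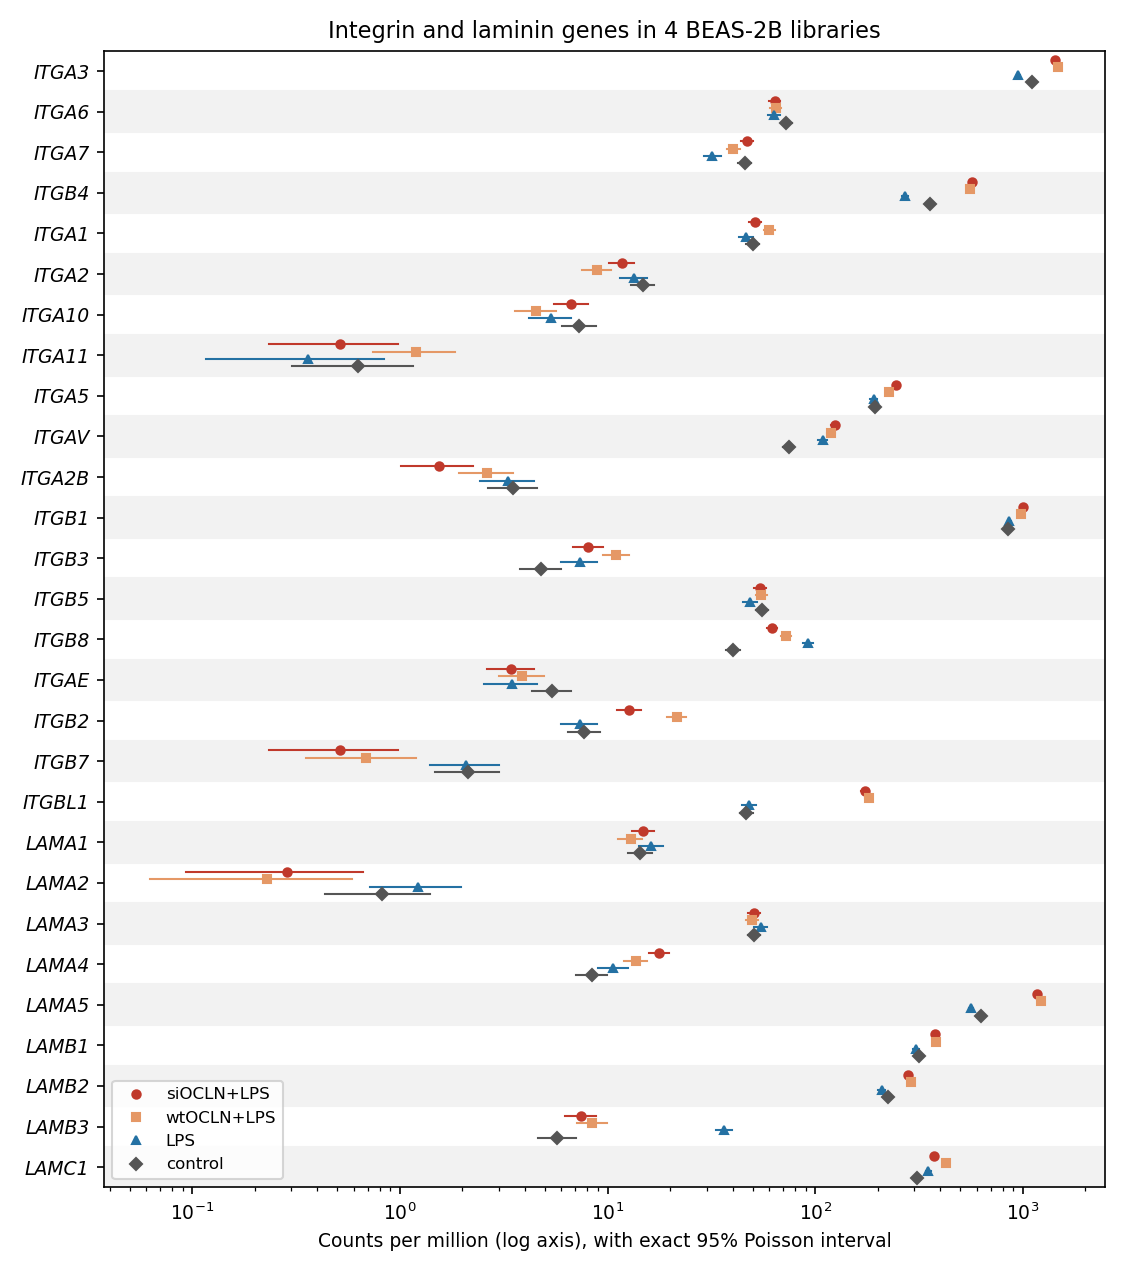
CPM of 28 of the 29 members that reached 1 CPM in any library (log axis), ordered by role, with exact 95% Poisson intervals and 1 point per library. LAMB3 stands apart in LPS (36.3 CPM, against 5.73 CPM in control), while LAMA5, ITGB4 and ITGBL1 are higher in both transfected libraries than in the LPS and control libraries.

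Per transcript length, ITGA3 and ITGB1 were the most abundant members in every library. In CPM per kilobase of the longest GENCODE 29 transcript, ITGB1 was at 266 in siOCLN+LPS, 258 in the library labelled wtOCLN+LPS, 227 in LPS and 224 in control. On the same scale ITGA3 was at 261 in siOCLN+LPS, 270 in the library labelled wtOCLN+LPS, 174 in LPS and 202 in control. The pair exchanged first place in the library labelled wtOCLN+LPS. The other members of the top 8 were ITGB4, LAMA5, LAMB1, LAMB2, LAMC1 and ITGA5 in each library, and the same 8 led when the mean transcript length was used.

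By RNA per length, the laminin chains were mainly LAMA5 among the alpha, LAMB1 and LAMB2 among the beta, and LAMC1 among the gamma chains. Which laminin trimers the cells assembled was not measured. LAMA5 made up 92.0% of the laminin alpha chain level in siOCLN+LPS (95% interval 91.6% to 92.4%), 93.1% in the library labelled wtOCLN+LPS, 85.4% in LPS (84.6% to 86.2%) and 87.9% in control (87.3% to 88.6%). LAMA3 made up 4.27% in siOCLN+LPS, 4.04% in the library labelled wtOCLN+LPS, 8.88% in LPS and 7.65% in control. ITGA3 held 68.0% to 74.4% of the integrin alpha chain level across libraries. Transcripts of several isoforms were counted as 1 gene, so these shares rest on the annotated lengths. With the mean transcript length in place of the longest, the LAMA3 share was 1.91% in siOCLN+LPS, 1.80% in the library labelled wtOCLN+LPS, 4.14% in LPS and 3.51% in control, and the LAMA5 share 93.0% to 96.8% across libraries.

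**Figure D2:**
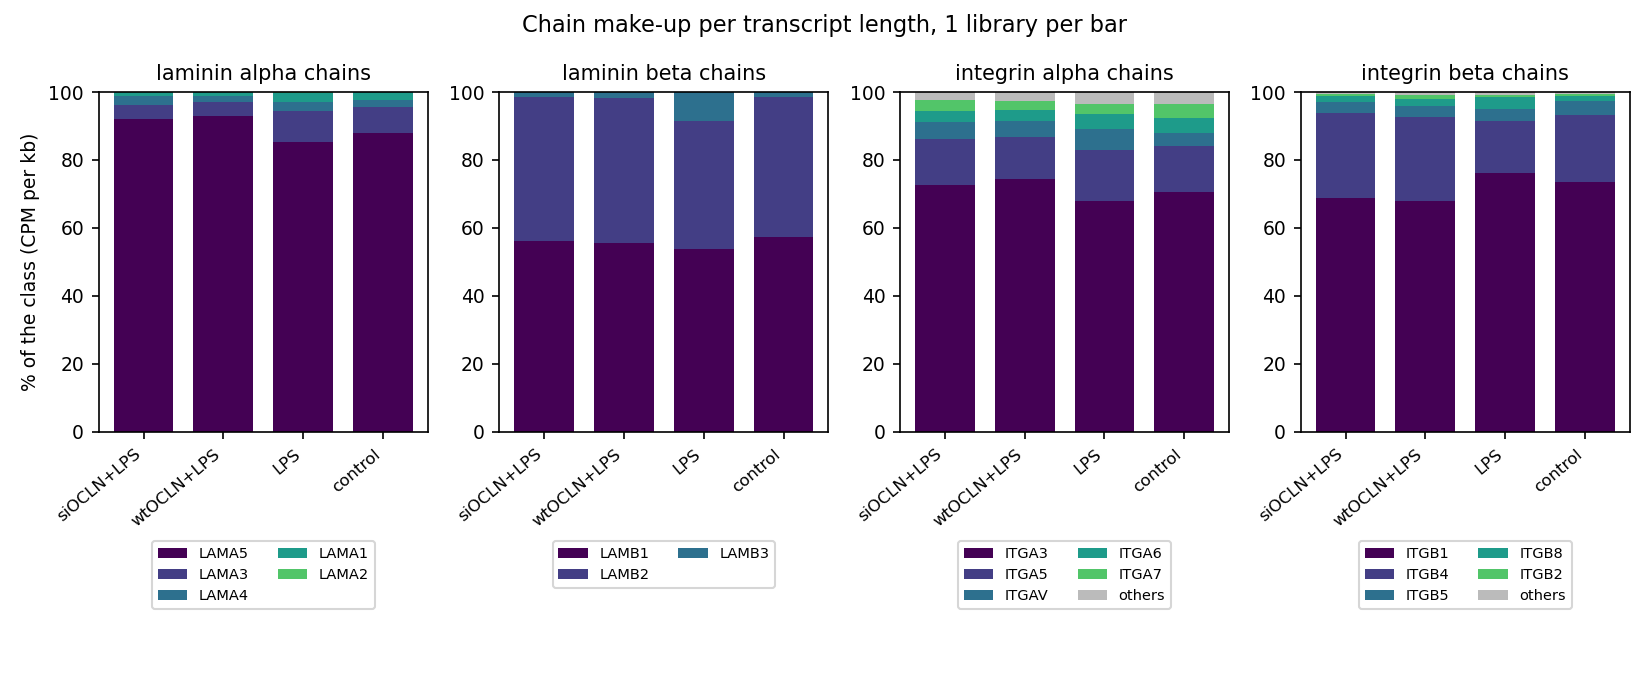
Share of each chain in its class (percent of the summed CPM per kilobase of the longest transcript), 1 library per bar. LAMB3 takes 8.59% of the laminin beta level in LPS against 1.39% in control, and ITGB4 takes 25.0% of the integrin beta level in siOCLN+LPS against 15.3% in LPS.

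The comparison of LPS with control asks how the family stood 2 h after LPS in cells with no transfection in their labels. LAMB3, which encodes the beta chain of the hemidesmosomal laminin, and ITGB8 were at least 2-fold higher in LPS. They were among 3 of 28 members compared (10.7%), against 1.6% of all 13551 genes compared. None of the 28 was at least 2-fold lower, against 0.207% of all genes, and 1.81% of all genes were apart in either direction. The median log2 ratio of CPM + 1 was -0.04 over the members and -0.09 over all genes tested, so the family as a whole lay where most genes lay.

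LAMB3, the beta chain found only in that laminin, was at 7.44 CPM in siOCLN+LPS, 8.46 CPM in the library labelled wtOCLN+LPS, 36.3 CPM in LPS and 5.73 CPM in control. The LPS library alone was high, on 504 counts against 91 in control. LPS over control gave a ratio of 6.35 (5.07 to 8.02). LAMA3, the alpha chain of the same laminin, was at 50.7 CPM in siOCLN+LPS, 49.7 CPM in the library labelled wtOCLN+LPS, 54.7 CPM in LPS and 50.9 CPM in control. By library totals its ratio of LPS to control was 1.08 (0.974 to 1.19), within counting error of 1, so LAMA3 and LAMB3 did not share a size of difference. TMM scaling raises each ratio of LPS to control, and the LAMA3 interval was not recomputed with it. LAMB3 made up 8.59% of the laminin beta chain level per length in LPS (7.90% to 9.33%) and 1.39% in control (1.12% to 1.70%). With the mean transcript length these shares were 3.41% in LPS and 0.523% in control.

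ITGB8 was at 62.0 CPM in siOCLN+LPS, 72.7 CPM in the library labelled wtOCLN+LPS, 92.3 CPM in LPS and 40.1 CPM in control. It was lowest in control, and LPS was 2.30-fold higher than control (2.09 to 2.54). Its partner ITGAV was at 125 CPM in siOCLN+LPS, 119 CPM in the library labelled wtOCLN+LPS, 109 CPM in LPS and 74.4 CPM in control. ITGAV was 1.46-fold higher in LPS than in control (1.35 to 1.58), beyond counting error but short of 2-fold. ITGB3, which also pairs with ITGAV, had a ratio of 1.54 (1.13 to 2.10) and ITGB5, another partner, one of 0.879 (0.794 to 0.973). By library totals the ITGAV partners thus lay on both sides of 1. TMM scaling raises each of these ratios, and the ITGB5 interval was not recomputed with it.

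Of the 28 members compared, 16 lay below 0 on the log2 scale in LPS, as did 9578 of 13551 genes. These included all 4 laminin-binding chains, all 3 compared collagen-binding chains and all 3 compared leukocyte chains, so the direction was not particular to one kind of receptor. The median over all genes was -0.09 by library totals and -0.002 with TMM scaling, where the members' median was 0.04. A place just below 0, such as the leukocyte chain median of -0.07, thus depends on the scaling. ITGB4, the hemidesmosomal beta chain, stood at 271 CPM with LPS, against 357 CPM without, a ratio of 0.760 (0.729 to 0.792). ITGA7, a laminin receptor chain best known from muscle, had a ratio of 0.697 (0.618 to 0.786) and ITGA3 one of 0.862 (0.843 to 0.882). ITGA10, a collagen-binding chain, had a ratio of 0.731 (0.539 to 0.987) and ITGAE, a leukocyte chain, one of 0.640 (0.440 to 0.921). By library totals these ratios were beyond counting error, that of ITGA10 narrowly, and all were short of 2-fold. The intervals were not recomputed with TMM scaling, which raises each ratio of LPS to control. ITGB1 had a ratio of 1.01 (0.989 to 1.04), and the laminin chains LAMA5 and LAMB1 had ratios of 0.901 and 0.960. The main laminin and integrin chains per length therefore differed far less between these libraries than LAMB3 did.

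**Figure D3:**
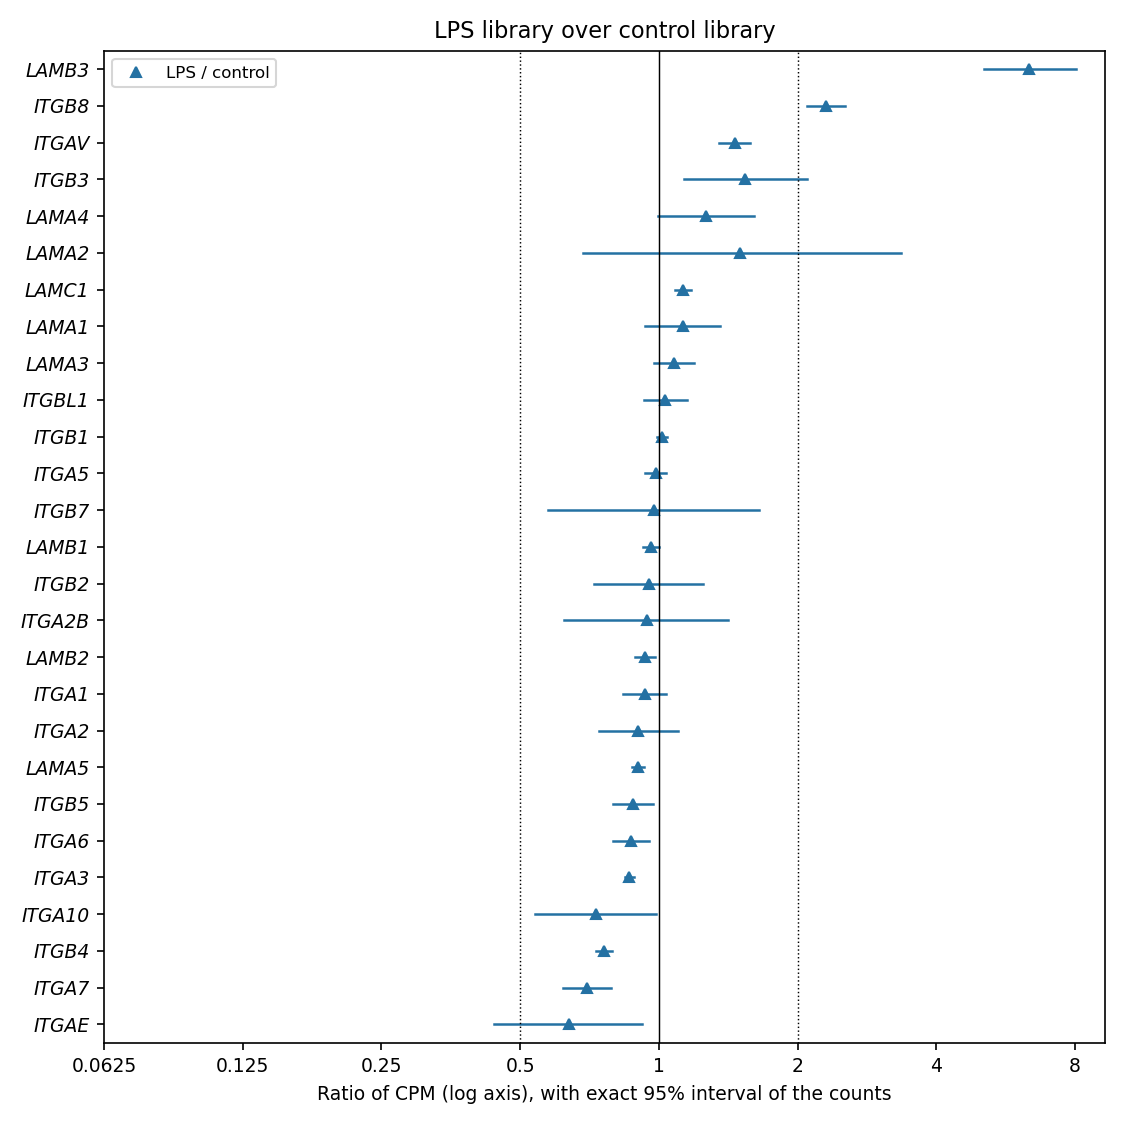
Ratio of CPM in the LPS library to CPM in the control library for 27 of the 28 members compared (log axis), with exact 95% intervals of the counts and dotted lines at 0.5 and 2. LAMB3 and ITGB8 lie past 2, and ITGAE, at 48 counts in LPS and 86 in control, is lowest with a ratio of 0.640.

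The annotated starts of the genes that differed most are shown because LAMB3 and ITGB8 were the higher members in LPS, and LAMA5 and ITGBL1 the higher members in the transfected libraries (described further on). RefSeq start windows (300 bases, from 250 before to 50 after a start, GRCh38.p14) were given for 27 of the 39 members, in 34 windows, with LAMB3 having 3 starts. ITGB4 had no entry. The windows below are LAMB3 at chr1:209652376-209652675 (minus strand), ITGB8 at chr7:20330650-20330949 (plus strand), LAMA5 at chr20:62367263-62367562 (minus strand) and ITGBL1 at chr13:101452425-101452724 (plus strand). Capitals mark matches to the NF-kB consensus or to the AP-1 motif TGANTCA, on either strand.
LAMB3: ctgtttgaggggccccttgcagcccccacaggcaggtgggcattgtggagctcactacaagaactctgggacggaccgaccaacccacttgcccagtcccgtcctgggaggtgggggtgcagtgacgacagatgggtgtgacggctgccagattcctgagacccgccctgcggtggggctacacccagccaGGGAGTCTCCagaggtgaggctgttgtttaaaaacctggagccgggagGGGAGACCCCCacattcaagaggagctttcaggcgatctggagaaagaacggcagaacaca
ITGB8: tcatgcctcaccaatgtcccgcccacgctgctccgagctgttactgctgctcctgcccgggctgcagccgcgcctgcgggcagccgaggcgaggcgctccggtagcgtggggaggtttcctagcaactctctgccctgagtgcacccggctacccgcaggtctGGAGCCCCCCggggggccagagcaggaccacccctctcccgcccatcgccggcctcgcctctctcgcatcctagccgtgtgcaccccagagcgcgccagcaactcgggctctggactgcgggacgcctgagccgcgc
LAMA5: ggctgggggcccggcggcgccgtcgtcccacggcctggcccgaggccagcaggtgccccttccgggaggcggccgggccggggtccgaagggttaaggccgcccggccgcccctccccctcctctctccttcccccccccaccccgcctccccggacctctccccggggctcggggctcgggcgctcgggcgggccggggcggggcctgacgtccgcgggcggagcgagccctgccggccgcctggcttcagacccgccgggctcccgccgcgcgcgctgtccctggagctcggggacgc
ITGBL1: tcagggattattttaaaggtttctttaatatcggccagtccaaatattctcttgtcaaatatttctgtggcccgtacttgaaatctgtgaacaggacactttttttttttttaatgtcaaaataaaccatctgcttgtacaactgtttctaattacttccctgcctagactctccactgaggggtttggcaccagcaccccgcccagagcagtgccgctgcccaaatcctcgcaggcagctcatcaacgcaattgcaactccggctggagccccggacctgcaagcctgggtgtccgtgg
The NF-kB consensus was matched at 3 positions in the LAMB3 window, of which 2 overlap, and at 1 position in the ITGB8 window. The LAMA5 and ITGBL1 windows held no match to either motif. The NF-kB consensus was present in 9 of the 34 member windows (26.5%) and in 11.3% of 35116 windows of all genes. Of the 9, 2 are overlapping LAMB3 windows with the same 3 matches. Counted by gene, 8 of 27 members with a window (29.6%) held a match, against 13.3% of 27305 genes. Besides LAMB3 and ITGB8 these were ITGA1, ITGA5, ITGA10, ITGA11, ITGB1 and LAMB1, none of which was counted as higher in LPS than in control. TGANTCA was present in 3 of the 34, including another LAMB3 start that held no NF-kB match, and in 7.71% of all windows. These matches describe letters in a window and were not tied to the expression values by a test.

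The transfected libraries were next set against LPS alone. Transfection and its occludin cargo cannot be told apart in these comparisons. LAMA5, ITGB4 and ITGBL1 exceeded their LPS level by 2-fold or more in both, and LAMB3 was below its LPS level by 2-fold or more in both. In siOCLN+LPS 3 of 28 members tested were higher (10.7%, against 3.32% of all 13505 genes) and 2 were lower (7.14%, against 3.92%), with 7.25% of all genes apart. In the library labelled wtOCLN+LPS 4 of 29 members were higher (13.8%, against 3.32% of all 13493 genes) and 1 was lower (3.45%, against 3.69%), with 7.01% of all genes apart. With TMM scaling, which moved the median of all genes to 0.01 in both, the genes higher and lower were 4.48% and 2.81% in siOCLN+LPS, and 4.59% and 2.48% for the library labelled wtOCLN+LPS. The median log2 ratio of the members was 0.14 in siOCLN+LPS (-0.13 over all genes) and 0.18 for the library labelled wtOCLN+LPS (-0.15 over all genes). Both comparisons use the same LPS library, so their likeness is not independent. Set against control by library totals, 1 of 27 members was higher in siOCLN+LPS (ITGBL1, against 3.94% of all genes). In that comparison 1 was lower (ITGB7, against 5.44%), with 9.38% of all genes apart. For the library labelled wtOCLN+LPS, 3 of 28 were higher than control (ITGB2, ITGB3 and ITGBL1, against 3.91%). None was lower (against 4.91%), with 8.82% of all genes apart. The median log2 ratio to control was 0.25 over the members in siOCLN+LPS (-0.22 over all genes). For the library labelled wtOCLN+LPS it was 0.32 (-0.24 over all genes). TMM scaling raises each of these ratios to control, and the counts against control were not repeated with it.

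LAMA5, the alpha chain of the main airway and endothelial basement membrane laminins, was at 1172 CPM in siOCLN+LPS, 1226 CPM in the library labelled wtOCLN+LPS, 564 CPM in LPS and 626 CPM in control. Both transfected libraries were above the other 2. The ratio to LPS was 2.08 in siOCLN+LPS (2.02 to 2.13) and 2.17 for the library labelled wtOCLN+LPS (2.12 to 2.23). Set against control by library totals, the ratio was 1.87 in siOCLN+LPS and 1.96 for the library labelled wtOCLN+LPS, short of 2-fold. The TMM factor was 1.11 in control, 0.938 in siOCLN+LPS and 0.925 for the library labelled wtOCLN+LPS. TMM scaling thus raises every ratio to control, and the place of LAMA5 against 2-fold was not recomputed with it. The chains that join LAMA5 differed less: in siOCLN+LPS the ratio to LPS was 1.34 for LAMB2 (1.28 to 1.41), 1.24 for LAMB1 and 1.07 for LAMC1. For the library labelled wtOCLN+LPS it was 1.39 for LAMB2 (1.32 to 1.45), 1.25 for LAMB1 and 1.21 for LAMC1. LAMA5 thus stood further from LPS than its partner chains did in both transfected libraries. LAMA4, an alpha chain of mesenchymal and vascular basement membranes, was at 17.7 CPM in siOCLN+LPS, 13.7 CPM in the library labelled wtOCLN+LPS, 10.7 CPM in LPS and 8.43 CPM in control.

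ITGB4 was at 572 CPM in siOCLN+LPS, 557 CPM in the library labelled wtOCLN+LPS, 271 CPM in LPS and 357 CPM in control. The transfected libraries were highest and LPS was lowest. Its ratio to LPS was 2.11 in siOCLN+LPS (2.03 to 2.19) and 2.05 for the library labelled wtOCLN+LPS (1.98 to 2.13), and its ratio to control was 1.60 in siOCLN+LPS and 1.56 for the library labelled wtOCLN+LPS. ITGA6, the only known alpha partner of ITGB4, was at 63.8 CPM in siOCLN+LPS, 64.5 CPM in the library labelled wtOCLN+LPS, 63.2 CPM in LPS and 72.7 CPM in control. By library totals the ITGA6 ratio to LPS was 1.01 (0.924 to 1.10) in siOCLN+LPS and 1.02 (0.934 to 1.12) for the library labelled wtOCLN+LPS. On that scale both intervals included 1 while those of ITGB4 did not. The TMM factors were 1.04 in LPS, 0.938 in siOCLN+LPS and 0.925 for the library labelled wtOCLN+LPS. TMM scaling thus raises every ratio to LPS, and these intervals were not recomputed with it. ITGA3 was at 1427 CPM in siOCLN+LPS, 1479 CPM in the library labelled wtOCLN+LPS, 953 CPM in LPS and 1105 CPM in control. Its ratio to LPS had an interval of 1.47 to 1.53 in siOCLN+LPS and of 1.52 to 1.59 for the library labelled wtOCLN+LPS.

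ITGBL1 had the highest ratio of the tested members in both comparisons. It encodes a secreted protein with the repeats of integrin beta chains and is not itself a receptor chain. ITGBL1 was at 173 CPM in siOCLN+LPS, 181 CPM in the library labelled wtOCLN+LPS, 48.0 CPM in LPS and 46.5 CPM in control. The transfected libraries were alike and far above the others, with ratios to LPS of 3.60 (3.31 to 3.92) in siOCLN+LPS and 3.76 (3.46 to 4.10) for the library labelled wtOCLN+LPS. FGF14, which overlaps ITGBL1 on the other strand, had 102 counts in siOCLN+LPS, 115 in the library labelled wtOCLN+LPS, 28 in LPS and 20 in control. Its counts followed the same order of groups, and with the strand setting of the counting unstated the genes' reads could not be separated.

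**Figure D4:**
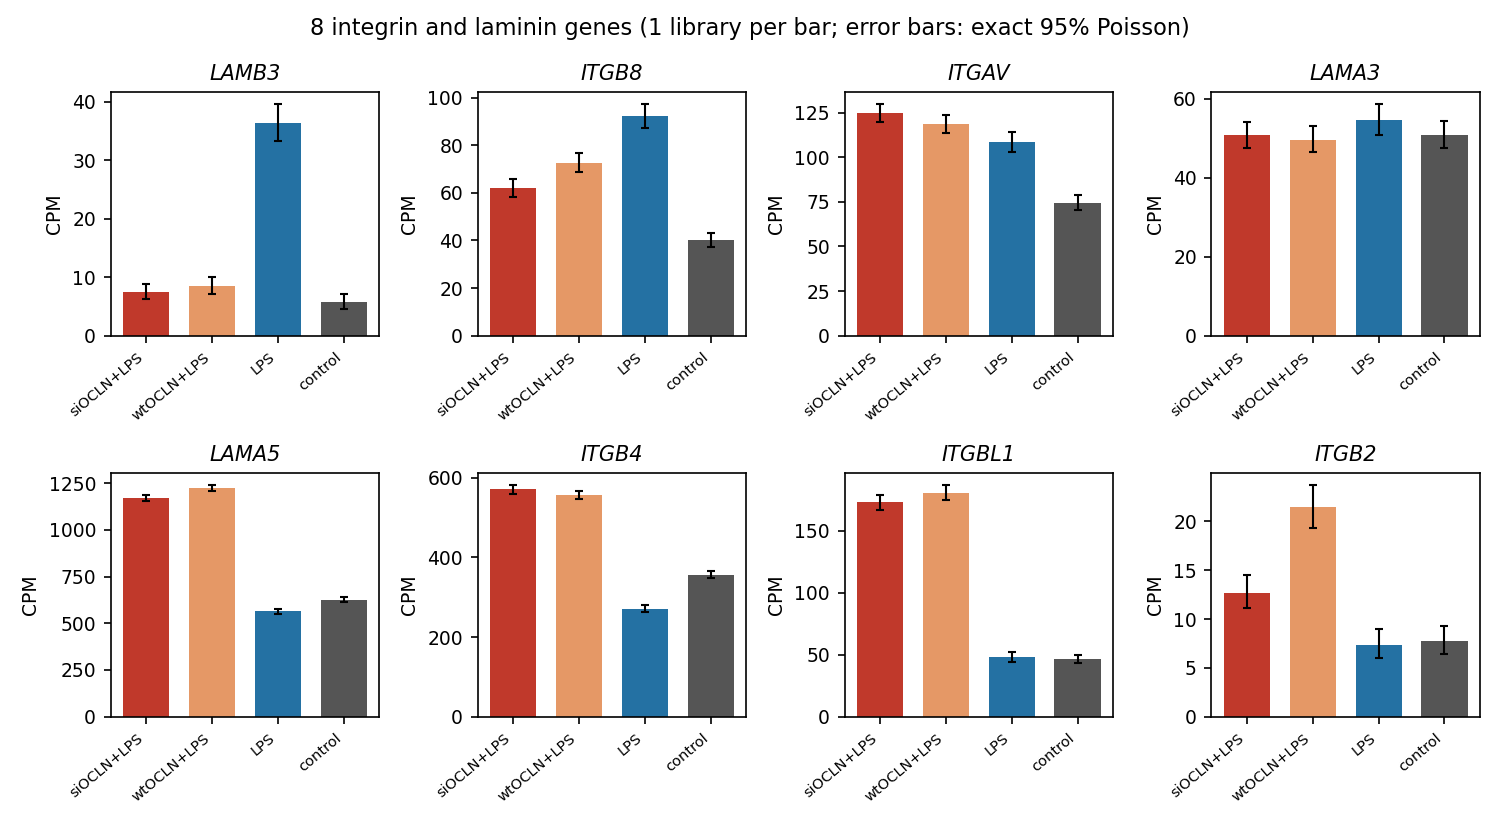
CPM of 8 members by library, 1 library per bar with exact 95% Poisson intervals, each panel on its own axis from 0. The upper row holds LAMB3 and ITGB8, highest in LPS, ITGAV, lowest in control, and LAMA3, level across libraries, and the lower row holds members that were higher in both transfected libraries.

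LAMB3 was 4.89-fold lower in siOCLN+LPS than in LPS (4.02 to 5.97) and 4.30-fold lower in the library labelled wtOCLN+LPS (3.57 to 5.20). Set against control by library totals, LAMB3 had ratios of 1.30 (0.986 to 1.72) in siOCLN+LPS and 1.48 (1.13 to 1.94) for the library labelled wtOCLN+LPS. TMM scaling raises both ratios to control, and their intervals were not recomputed with it. By their labels both transfected libraries had LPS for 2 h. ITGB8 lay on the same side, with a ratio to LPS of 0.671 (0.619 to 0.729) in siOCLN+LPS and 0.787 (0.728 to 0.852) for the library labelled wtOCLN+LPS. LAMB3 and ITGB8 thus had ratios under 1 in both transfected libraries. The single LPS library is the denominator of these ratios and the numerator of the ratios to control, so these are not independent observations.

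**Figure D5:**
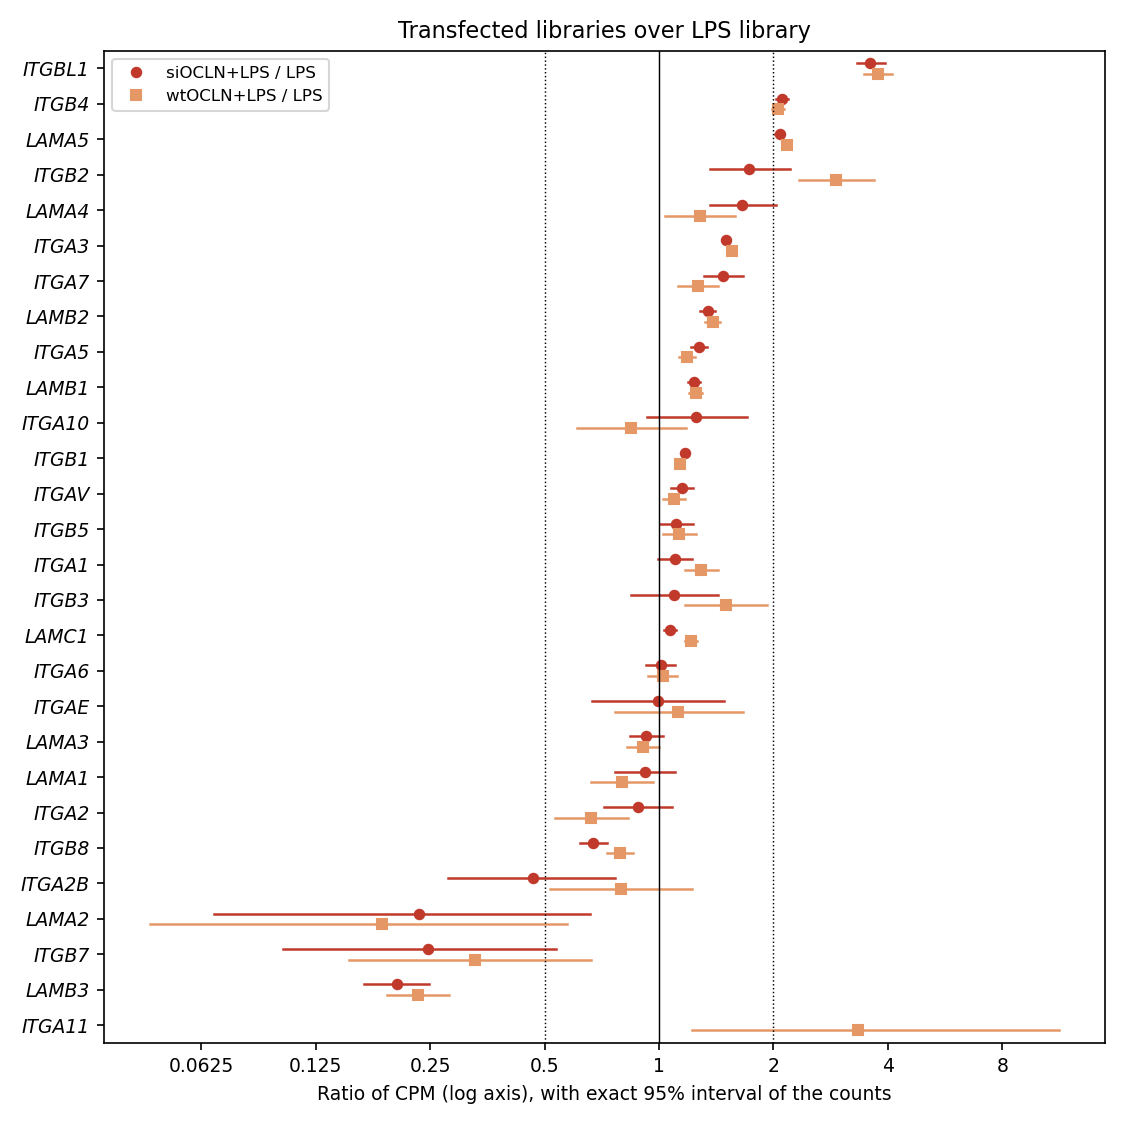
Ratio of CPM in siOCLN+LPS (circles) and for the library labelled wtOCLN+LPS (squares) over the LPS level for the members compared other than 1 (log axis), with exact 95% intervals of the counts and dotted lines at 0.5 and 2. ITGBL1, ITGB4 and LAMA5 lie past 2 in both and LAMB3 lies below 0.5 in both, at 0.205 in siOCLN+LPS and 0.233 for the library labelled wtOCLN+LPS.

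Over both chain families, summed integrin CPM was 3869 in siOCLN+LPS, 3886 in the library labelled wtOCLN+LPS, 2759 in LPS and 2937 in control. Summed laminin CPM was 2303 in siOCLN+LPS, 2418 in the library labelled wtOCLN+LPS, 1565 in LPS and 1566 in control. Both sums were higher in the transfected libraries. Of the 29 members at 1 CPM or more, 14 were higher in both transfected libraries than in both others, against 23.8% of 13777 genes, and 5 were lower in both, against 52.1%. With TMM scaling these were 18 members against 38.7% of genes and 4 members against 36.1%. The 14 were ITGA1, ITGA3, ITGA5, ITGAV, ITGB1, ITGB2, ITGB3, ITGB4, ITGBL1, LAMA4, LAMA5, LAMB1, LAMB2 and LAMC1, and the 5 were ITGA2, ITGA2B, ITGB7, LAMA2 and LAMA3. These orders compare CPM values alone and take no account of counting error. In siOCLN+LPS against control, ITGA1 had a ratio of 1.02 (0.928 to 1.13) and LAMA3 one of 0.997 (0.905 to 1.10) by library totals. TMM scaling raises both ratios, and their intervals were not recomputed with it.

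The leukocyte integrin chains were low or absent, as were the leukocyte markers. ITGB2, the beta chain of leukocyte integrins, was the exception at 12.7 CPM in siOCLN+LPS (interval 11.1 to 14.5), 21.5 CPM in the library labelled wtOCLN+LPS (interval 19.4 to 23.8), 7.36 CPM in LPS and 7.74 CPM in control. The library labelled wtOCLN+LPS was highest, with a ratio to LPS of 2.92 (2.34 to 3.67), while siOCLN+LPS had one of 1.73 (1.36 to 2.20). The alpha chains that ITGB2 pairs with were at 0 counts (ITGAL, ITGAD), at 0 to 7 counts (ITGAM) and at 1 to 12 counts (ITGAX) per library. The leukocyte marker list of 6 genes (PTPRC, CD3E, LST1, CSF1R and TYROBP among them) summed to 0 CPM in siOCLN+LPS, 0.457 CPM in the library labelled wtOCLN+LPS, 0.505 CPM in LPS and 0.441 CPM in control. ITGB2-AS1, an antisense gene that overlaps ITGB2, had 86 counts in siOCLN+LPS, 105 in the library labelled wtOCLN+LPS, 34 in LPS and 25 in control, and was not separable from ITGB2 for the reason given for FGF14.

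ITGB7, another leukocyte beta chain, had 9 counts in siOCLN+LPS, 12 in the library labelled wtOCLN+LPS, 29 in LPS and 34 in control. It was counted as lower in siOCLN+LPS with a ratio of 0.246 (0.103 to 0.534), a call lost with TMM scaling. ITGB7 and LAMA2 entered the comparisons with LPS through the LPS library alone, and ITGA11 (21 counts in the library labelled wtOCLN+LPS and 5 in LPS) through the transfected library alone. ITGA2B, the platelet chain, had 27 counts in siOCLN+LPS, 46 in the library labelled wtOCLN+LPS, 46 in LPS and 56 in control, and of the 4 platelet markers PF4, GP9 and PPBP had 0 counts in all libraries. The remaining marker, GP1BA, a platelet receptor chain, had 18 counts in siOCLN+LPS, 21 in the library labelled wtOCLN+LPS, 32 in LPS and 69 in control. GP1BA was at least 2-fold lower than control in both transfected libraries. These low members rest on too few counts for firm ratios.

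Setting siOCLN+LPS against the library labelled wtOCLN+LPS puts transfected cells under LPS side by side. None of 27 members compared was at least 2-fold apart, against 0.366% of 13109 genes, of which 0.0763% were higher and 0.29% lower. The median log2 ratio was -0.04 over the members and 0.02 over all genes. ITGB2 was farthest apart on log2(CPM + 1), 1.69-fold lower in siOCLN+LPS (1.43 to 2.01), followed by ITGA11 on 9 and 21 counts and ITGA2B on 27 and 46 counts. At the upper end was ITGA10, a collagen receptor chain best known from cartilage, with 117 counts in siOCLN+LPS and 79 for the library labelled wtOCLN+LPS, a ratio of 1.48 (1.11 to 2.00). LAMA5, ITGB4 and ITGBL1 had ratios of 0.955 (0.937 to 0.974), 1.03 (0.999 to 1.06) and 0.956 (0.909 to 1.01), and LAMB3 one of 0.880 (0.690 to 1.12). For ITGB4, ITGBL1 and LAMB3 these intervals include 1.

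Other genes of cell-matrix adhesion were read from lists that hold no member. Of 3 tested hemidesmosome genes outside the family (PLEC, DST and CD151), none was at least 2-fold apart in any comparison. Of all genes, 0.366% to 9.38% were apart, depending on the comparison, so this count does not set the list off from other genes. COL17A1 had 4 to 8 counts per library. CD151, a tetraspanin that binds laminin-receptor integrins, was at 157 CPM in siOCLN+LPS, 162 CPM in the library labelled wtOCLN+LPS, 103 CPM in LPS and 104 CPM in control. CD151 was higher than LPS in both transfected libraries, at 1.52-fold of LPS in siOCLN+LPS and 1.57-fold for the library labelled wtOCLN+LPS. PLEC, the plakin that binds ITGB4, was at 4830 CPM in siOCLN+LPS, 5127 CPM in the library labelled wtOCLN+LPS, 5131 CPM in LPS and 5000 CPM in control. DST, another plakin, was at 194 CPM in siOCLN+LPS, 188 CPM in the library labelled wtOCLN+LPS, 219 CPM in LPS and 216 CPM in control. By library totals CD151 was thus the only 1 of the 3 above its LPS level in the transfected libraries. TMM scaling raises all ratios to LPS, and the place of PLEC, close to its LPS level, depends on the scaling. COL17A1, the hemidesmosomal collagen of basal cells, was near 0 although ITGB4 was among the most abundant members.

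Of 24 tested genes of the basement membrane and its other receptors, 2 were past 2-fold higher with LPS alone, SDC4 and COL7A1, and none was lower (8.33% higher, against 1.6% of all genes; list median 0.02, against -0.09 over all genes). SDC4, a syndecan that works with integrins in focal adhesions, was 3.90-fold higher (3.83 to 3.98), and COL7A1, the anchoring fibril collagen that binds the LAMB3-containing laminin, 2.23-fold higher (2.03 to 2.44). In both transfected libraries 4 of 24 were at least 2-fold higher than LPS (16.7%, against 3.32% of all genes in each) and 1 lower (4.17%, near the 3.92% of all genes in siOCLN+LPS and 3.69% for the library labelled wtOCLN+LPS), with list medians of 0.48 in siOCLN+LPS and 0.47 for the library labelled wtOCLN+LPS. HSPG2, the basement membrane proteoglycan perlecan, was at 1034 CPM in siOCLN+LPS, 991 CPM in the library labelled wtOCLN+LPS, 331 CPM in LPS and 274 CPM in control. It was on the side of LAMA5, as were SDC2, a syndecan, at 4.66-fold of LPS in siOCLN+LPS and 5.24-fold for the library labelled wtOCLN+LPS, and PXDN, the enzyme that crosslinks collagen IV, at 2.25-fold of LPS in both. NID2, a linker of laminin and collagen IV, was the lower one, at 61 counts in siOCLN+LPS, 70 in the library labelled wtOCLN+LPS, 273 in LPS and 305 in control.

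Of 29 tested integrin ligands outside the laminins, 4 were past 2-fold higher with LPS alone and none lower (13.8% higher, against 1.6% of all genes; list median 0.10, against -0.09 over all genes). ICAM1, the ligand of leukocyte integrins, was 7.77-fold higher (7.43 to 8.13), and TNC, the matrix protein tenascin-C, 4.22-fold higher (3.71 to 4.82). TGFB2, a TGF-beta isoform, was 2.09-fold higher (1.86 to 2.35). TGFB2 was counted with this list, but whether an integrin binds it was not examined. TNC, like LAMB3, was highest in LPS and lowest in control, at 24.9 CPM in siOCLN+LPS, 22.6 CPM in the library labelled wtOCLN+LPS, 77.8 CPM in LPS and 18.4 CPM in control. ICAM1 was highest in the transfected libraries, at 1528 CPM in siOCLN+LPS, 1445 CPM in the library labelled wtOCLN+LPS, 1082 CPM in LPS and 139 CPM in control. Against LPS, 5 of 29 were higher in siOCLN+LPS (17.2%, against 3.32% of all genes) and 2 lower (6.90%, against 3.92%). For the library labelled wtOCLN+LPS 4 were higher (13.8%, against 3.32%) and 3 lower (10.3%, against 3.69%). The list median was 0.24 in siOCLN+LPS (-0.13 over all genes) and 0.32 for the library labelled wtOCLN+LPS (-0.15). NPNT, the ligand of ITGA8/ITGB1, was 14.2-fold higher than LPS in siOCLN+LPS and 15.1-fold for the library labelled wtOCLN+LPS, while ITGA8 itself had 0 counts. EDIL3, a ligand of ITGAV integrins, was 2.56-fold higher in siOCLN+LPS and 2.57-fold for the library labelled wtOCLN+LPS. CTGF, another integrin-binding matrix protein, was 2.66-fold higher in siOCLN+LPS and 2.78-fold for the library labelled wtOCLN+LPS. CDH1 is in this list and also among the epithelial markers.

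Of 60 tested focal adhesion genes, 1 was past 2-fold higher with LPS alone, the scaffold NEDD9 at 2.73-fold (1.91 to 3.98), and none was lower. That share, 1.67%, was near the 1.6% of all genes. Against LPS, 4 were higher in siOCLN+LPS (6.67%, against 3.32% of all genes) and 3 lower (5%, against 3.92%). For the library labelled wtOCLN+LPS 5 were higher (8.33%, against 3.32%) and 3 lower (5%, against 3.69%), with list medians of 0.20 in each. TNS3, a tensin that binds integrin beta tails, was at 350 CPM in each transfected library, against 126 CPM in LPS. LIMS2, a partner of integrin-linked kinase, was 2.68-fold of LPS in siOCLN+LPS and 2.70-fold for the library labelled wtOCLN+LPS. LPP, a zyxin-family protein, was 2.22-fold lower than LPS in siOCLN+LPS and 2.32-fold lower for the library labelled wtOCLN+LPS.

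Some epithelial markers differed in the same libraries. The list of KRT5, KRT8, KRT18, KRT19, CDH1 and EPCAM summed to 1661 CPM in siOCLN+LPS, 1566 CPM in the library labelled wtOCLN+LPS, 697 CPM in LPS and 848 CPM in control, with all 6 at 1 CPM or more in each. Against LPS, siOCLN+LPS had 4 of 6 past 2-fold higher and the library labelled wtOCLN+LPS 3 of 6, with 3.32% of all genes higher in each. KRT8 and KRT18, keratins of simple epithelia, made up most of the sum, with KRT8 alone at 976 CPM in siOCLN+LPS, 919 CPM in the library labelled wtOCLN+LPS, 372 CPM in LPS and 442 CPM in control. The 2 others lay below their LPS level. EPCAM, an epithelial adhesion protein, had 22 counts in siOCLN+LPS, 28 in the library labelled wtOCLN+LPS, 37 in LPS and 32 in control, and KRT5, the basal cell keratin, had 19.1 CPM in siOCLN+LPS, 19.9 CPM in the library labelled wtOCLN+LPS, 22.4 CPM in LPS and 18.9 CPM in control. The fibroblast list summed to 57.1 CPM in siOCLN+LPS, 56.1 CPM in the library labelled wtOCLN+LPS, 63.0 CPM in LPS and 58.1 CPM in control, nearly all of it COL1A1, with the other 5 markers under 1 CPM in each library. The endothelial list summed to at most 1.44 CPM. The part of the epithelial marker difference in the integrin and laminin values was not tested, and in these bulk libraries more cells of a kind and more RNA per cell cannot be told apart.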

How the data were processed

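The deposited files held whole-number counts per gene symbol for 24424 symbols, 1 library per group, not normalized by the authors as far as the values show. The submitters' processing notes list TopHat, Cufflinks and hg19. Versions are absent there, and the counter, strand setting and annotation were not given in the sources used here. Per the labels' protocols, a directional kit was used on 1.3 µg RNA. Library totals ran from 13867494 to 17500031 counts.

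CPM was computed from library totals. Log2 ratios used a pseudocount of 1 CPM over genes that reached 1 CPM in at least 1 of the paired libraries, with a threshold of 2-fold. No test was possible with 1 library per group, so edgeR's quasi-likelihood test was not fitted. Ratio and Poisson intervals were exact (95%). Intervals on per-length shares were carried over from Clopper-Pearson intervals on the counts. Lengths and overlaps came from GENCODE 29, on another build, so no gene coordinates are given; RefSeq start windows are on GRCh38.p14. Every member at 1 CPM or more was named except 1, which enters the counts but is not reported here, and of each other list up to 4 genes at 5 CPM or more and past 2-fold, by the absolute log2 ratio; single marker levels, the hemidesmosome genes and the overlapping genes were chosen after values were seen. Members and lists were chosen with earlier results of these data known. Other pseudocounts, filters, thresholds and scalings were tried. The ratio and interval steps were tested on simulated data. Scaling factors came from edgeR 4.0.16 (TMM) and DESeq2 1.42.0 (median ratio) in R 4.3.3. All else ran in Python 3.11.15 with pandas 2.3.3, SciPy 1.17.1, matplotlib 3.10.9 and NumPy 2.4.6.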

Additional observations from a re-analysis of the deposited data

How the results depend on the processing

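The settings tried were a threshold of 1.5-fold, pseudocounts of 0.1 and 5, a filter at 5 CPM or none, median ratio and TMM scaling, ITGBL1 left out and, for the transfected libraries, control in place of LPS. Of 932 gene ratios over these settings, 903 kept their side of the threshold, 19 passed it, 8 dropped below it and 2 changed sign. Leaving ITGBL1 out (108 ratios), using no filter (112) and filtering at 5 CPM (97) do not alter a gene's own ratio. Those ratios could only keep their side, so they say nothing of stability. Members counted as higher in LPS than in control were 2 or 3 under every setting, with 2 at a pseudocount of 5. The share of all genes higher there ran from 0.996% at a pseudocount of 5 to 3.45% at 1.5-fold. In siOCLN+LPS against LPS the count of lower members was 5 of 28 at 1.5-fold (against 15.3% of all genes) or a pseudocount of 0.1 (against 6.9%). It was 1 with a pseudocount of 5, a filter at 5 CPM, either other scaling or control as reference, against 1.4% to 5.44% of all genes. The count of higher members there was 5 at 1.5-fold (against 9.09% of all genes) and 1 against control (against 3.94%). In the library labelled wtOCLN+LPS against LPS lower members were 3 of 29 with a pseudocount of 0.1 (against 6.86% of all genes). They were 4 of 29 at 1.5-fold (against 15.1%) and 0 against control (against 4.91%). At 1.5-fold the lower members were thus near the share of all genes. Between the transfected libraries 1 member was lower with a pseudocount of 0.1 (ITGA11, against 0.626% of all genes) and 1 at 1.5-fold (ITGB2, against 1.19%). Against control, LAMB3 changed sign, to log2 ratios of 0.33 in siOCLN+LPS and 0.49 for the library labelled wtOCLN+LPS. ITGB4 and LAMA5 dropped below 2-fold there. Control was set as reference by library totals only, and TMM scaling raises each ratio of a transfected library to control. TMM scaling moved the median of all genes from -0.13 to 0.01 in siOCLN+LPS against LPS, where the members' median was then 0.28, and from -0.15 to 0.01 for the library labelled wtOCLN+LPS, where it was 0.35. The TMM and median ratio orderings of libraries were added after seeing the data. No library could be left out and no paired analysis was possible because each group has 1 library. ITGB7, LAMA2 and ITGA11, with at most 34 counts in any library, and ITGA2B, with at most 56, are limited by depth.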

Other observations

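Several members share their place in the genome with other counted genes, which limits single values because the strand setting of the counting is not given in the sources used here. PELO lies within ITGA1 on the same strand and had 40.6 CPM in siOCLN+LPS, 41.2 CPM in the library labelled wtOCLN+LPS, 53.3 CPM in LPS and 54.4 CPM in control. PELO was thus lower in both transfected libraries where ITGA1 was higher. By library totals ITGA1 in siOCLN+LPS was within counting error of control, which was not checked with TMM scaling. GALK1 overlaps ITGB4 on the other strand and had 34.2 CPM in siOCLN+LPS, 30.3 CPM in the library labelled wtOCLN+LPS, 20.9 CPM in LPS and 24.0 CPM in control, the same order of the transfected and other libraries as ITGB4 at a far lower level. ADRM1, which overlaps LAMA5 on the other strand, did not share the order of LAMA5, at 136 CPM in siOCLN+LPS, 138 CPM in the library labelled wtOCLN+LPS, 124 CPM in LPS and 140 CPM in control. DLD, which overlaps LAMB1, was at 94.2 to 104 CPM across the libraries.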
